A study of Caenorhabditis elegans with 6 samples.

Results

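The read clusters found reproducibly in the CLIP of 3xFLAG-tagged ADR-1 comprised the authors' list of 636 uniquely annotated significant clusters and 100 more that are absent from it by chromosome, start, end and strand. These 100 clusters are described here. ADR-1 is a double-stranded RNA binding protein of the ADAR family in Caenorhabditis elegans. The samples were 3 CLIP libraries and 3 inputs from whole, unsynchronized mixed-stage animals of strain HAH59, which carries the 3xFLAG tag on ADR-1, grown at 20 °C on OP50 bacteria and crosslinked with ultraviolet light at 3 J/cm2. Each input was 2% of the lysate from which the same-numbered CLIP was made, so both groups share the tag, the crosslink and the RNase I digest, and only the CLIP was pulled down with anti-FLAG beads. The pulldowns also went through a double-stranded RNA ligation on the beads. No untagged or mock pulldown was used here, so RNA in contact with ADR-1 and RNA held by the beads cannot be told apart, and whole animals mix all tissues. The file captions call the replicates biological, but not whether they were separate cultures, so each p-value reflects only how much these libraries varied, which may be technical.

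ADR-1 has RNA binding domains but no deaminase activity of its own, and it is known to alter which adenosines the active enzyme ADR-2 converts to inosine. In CLIP, RNA that stays with the crosslinked protein after RNase trimming is sequenced, and a cluster is a stretch where such reads pile up. Many C. elegans tRNA, small nucleolar RNA (snoRNA) and small nuclear RNA (snRNA) genes lie inside introns of protein-coding genes on the same strand. Transfer RNAs carry amino acids to the ribosome, and snRNAs act in splicing. A read in such an intron falls in the small RNA and in its host gene at once, and a count cannot say from which of these transcripts it came.

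The 100 clusters fell into 6 kinds by the genes annotated on their own strand. A non-coding RNA inside an intron of a host gene made up 65, of which 39 were tRNAs, 14 snoRNAs, 6 other non-coding RNAs, 5 snRNAs and 1 a microRNA. In 14 clusters a non-coding RNA overlapped an mRNA exon, in each case at the mRNA's 3′ UTR, and in 4 the 3′ UTR of an mRNA lay in an intron of another gene. In 4 clusters 2 or more non-coding RNAs overlapped, and in 2 clusters a pair of mRNA exons did. The remaining 11 clusters carried 1 gene only. All 11 had a deposited p under 0.05 in just 1 replicate, which no cluster of the list of 636 had. The same held for 8 of the 65 in host introns, 5 at snoRNAs, 2 at tRNAs and 1 at an snRNA. Together the clusters named 172 genes, among them 86 protein-coding genes, 39 tRNA genes and 19 snoRNA genes, and none of the 100 overlapped a cluster of the list of 636.

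The library totals recovered from the deposited scores were, by replicate, 5776707, 5773598 and 5775984 in CLIP and 4158973, 2475491 and 4248714 in the inputs. The CLIP totals lie close together, and whether each is the depth of its own library is not known. In CLIP, reads in the 100 clusters numbered 32221 in replicate 1, 5168 in replicate 2 and 13824 in replicate 3. As shares of the library these were 0.558% (exact binomial 95% bounds 0.552 and 0.564), 0.0895% (bounds 0.0871 and 0.0920) and 0.239% (bounds 0.235 and 0.243). In the inputs the clusters took 1755, 436 and 1642 reads, shares of 0.0422% (bounds 0.0402 and 0.0442), 0.0176% (bounds 0.0160 and 0.0193) and 0.0386% (bounds 0.0368 and 0.0406). These intervals cover counting error only. CLIP replicate 2 had the lowest share among the CLIP libraries, and the count of calls is given with and without it.

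Values below are read counts as deposited, and a ratio is the log2 of CLIP over input reads, 1 read added to each, scaled for the library totals and averaged over the 3 same-numbered pairs (SD, n = 3). Of the 100 clusters, 74 had enough reads to be tested by edgeR's quasi-likelihood test, and 65 of these were higher in CLIP at a Benjamini-Hochberg adjusted p under 0.05, against a background of 97.2% of all 463 clusters tested. None was lower in CLIP (background 0%). Without CLIP replicate 2, 83 of 84 tested members were higher, against a background of 99.9%. The median log2 fold was 3.62 over the 74 and 4.44 over all 463. Clusters had been called for their CLIP reads in these same libraries, so these counts are a description. With TMM factors, which set the typical cluster near no change, the median of all tested clusters moved to 0.69, and 11 of 66 tested members were called higher (background 35.9%) and 25 lower (background 14.9%). With DESeq2's own size factors 11 of 75 were higher (background 18.1%) and 30 lower (background 14.4%), so every direction here is relative to the library totals.

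In CPM, the reads of a cluster as a rate over its library total, all 3 CLIP libraries exceeded all 3 inputs in 81 of the 100 clusters (background 87% of the 636 and the 100 together). The deposited p was under 0.05 in all 3 replicates in 47 (background 46.2%), in 2 replicates in 34 and in 1 replicate in 19. The ratio was above 0 in every replicate in 95 of the 100 (background 87.1%). Per replicate, the median ratio of the 100 was 3.72, 1.36 and 2.64 (mean 2.58 ± 1.18), against 3.05 ± 1.42 for the listed 636.

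**Figure D1:**
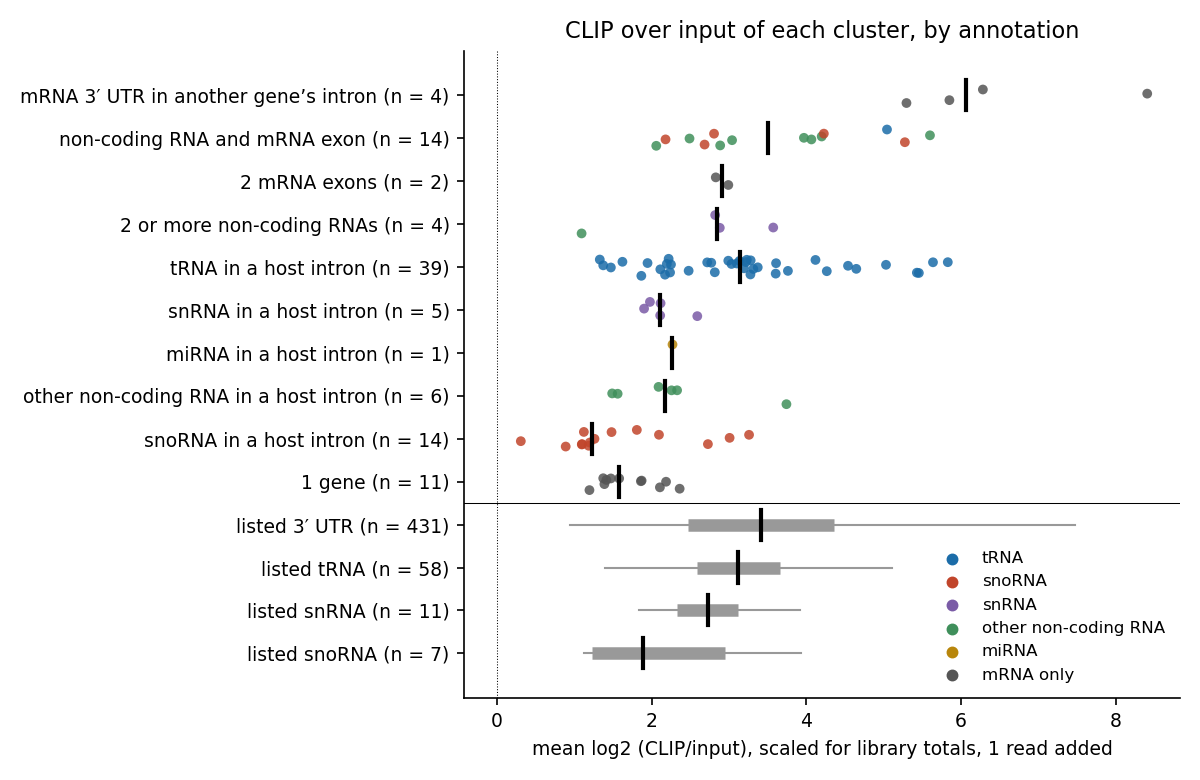
Each point is 1 of the 100 clusters at its mean log2 ratio of CLIP over input (x axis, scaled for library totals, 1 read added), in rows by annotation and coloured by RNA class, with a black line at the median. Below the rule, thin and thick grey bars give the range and quartiles of the listed clusters. The 4 clusters annotated as an mRNA 3′ UTR within another gene's intron lie between 5.29 and 8.40, and the 14 snoRNAs in host introns between 0.31 and 3.26.

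The 3 highest ratios of the 100 belonged to mRNA 3′ UTRs that the authors annotate within an intron of another gene. The first cluster of Y39A1A.22 (WBGene00012659, chromosome III, 10702936 to 10703069, minus strand, WBcel235), inside an intron of Y39A1A.21, had 3463, 745 and 2385 reads in CLIP against 3, 2 and 2 in input. Every CLIP library exceeded every input. Its ratio of 8.40 ± 1.45 was the highest of all clusters, the highest listed one being 7.47, and its edgeR adjusted p was 7.87e-08. A second cluster of Y39A1A.22, 627 bases away (10703697 to 10703777), had 389, 99 and 183 reads in CLIP against 2 in each input, a ratio of 5.29 ± 1.37.

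The gene set-27 (WBGene00022173), which encodes a SET domain protein, carried the other pair of this kind, annotated inside an intron of cox-6B, a gene for a cytochrome c oxidase subunit. In the first cluster (chromosome III, 2707154 to 2707238, plus strand) CLIP held 720, 128 and 600 reads and each input held 2, a ratio of 6.28 ± 1.80 with an edgeR adjusted p of 2.67e-06. The second cluster (2707561 to 2707656) had 326, 63 and 321 CLIP reads and 1 read in each input, a ratio of 5.85 ± 1.79. CLIP and input did not overlap in either. In RefSeq, cox-6B does not span these clusters, so the nesting rests on the authors' annotation alone. As a kind, the 4 clusters had a median ratio of 6.07 ± 1.78 over replicates, which was 2.69 ± 0.49 above that of the 431 listed 3′ UTR clusters and higher in 3 of 3 replicates. The exact sign-flip p over replicates was 0.25, the smallest that 3 pairs allow (0.321 adjusted over 9 comparisons of medians, two-sided).

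**Figure D2:**
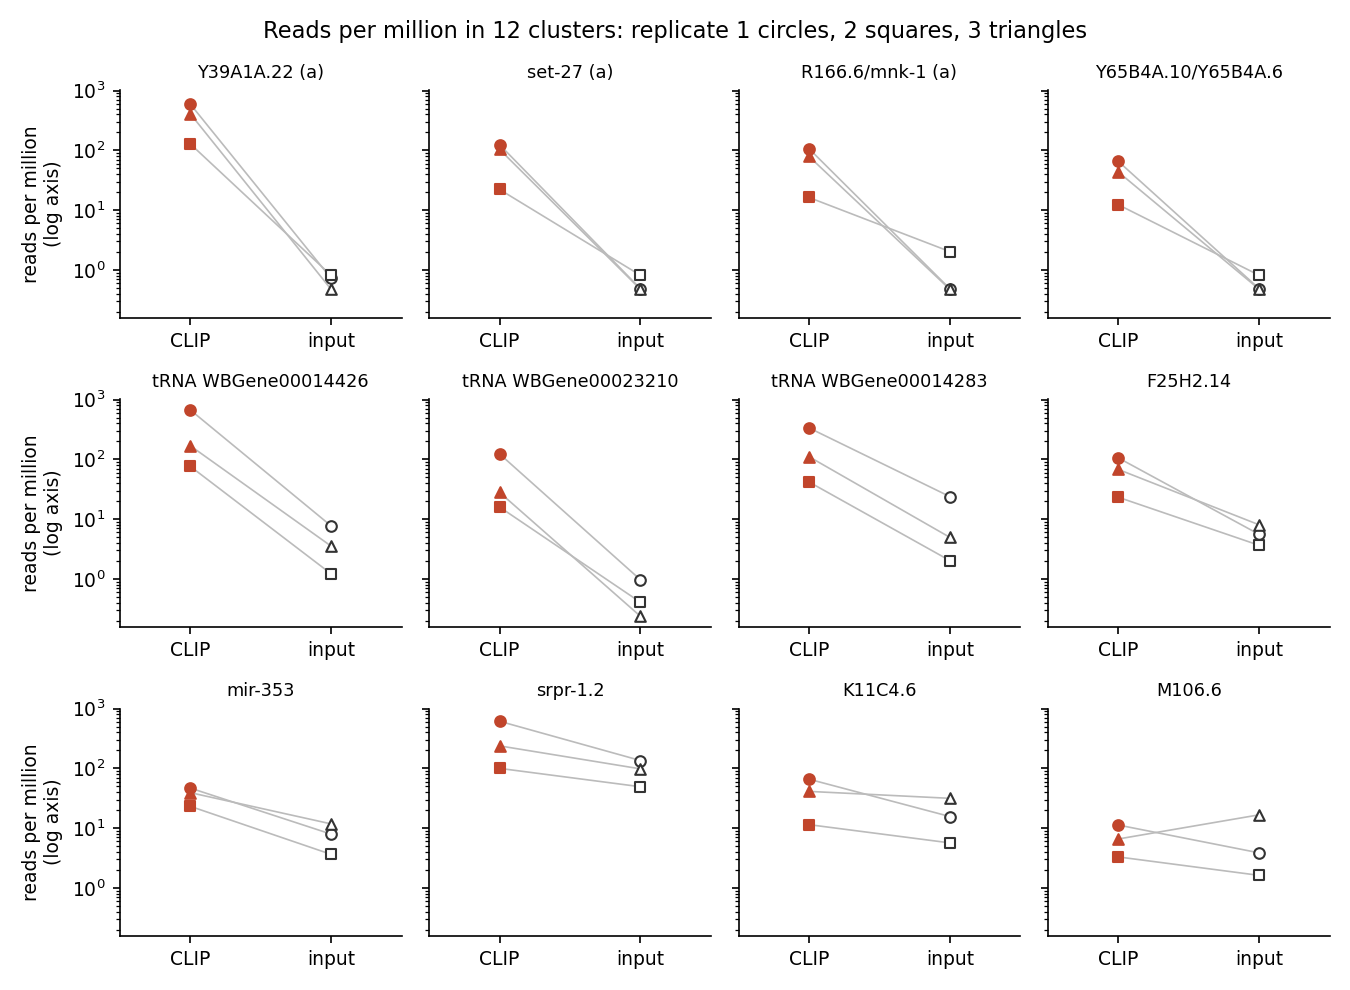
CPM (log y axis) of 12 named clusters in each CLIP library (filled, left) and its same-numbered input (open, right), with replicate 1 as circles, 2 as squares and 3 as triangles. In Y39A1A.22, set-27 and the tRNA clusters all CLIP points stand above all inputs, while in srpr-1.2, K11C4.6 and M106.6 the groups overlap.

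In 14 clusters a non-coding RNA overlapped the 3′ UTR of an mRNA. In all 14 every CLIP library exceeded every input in CPM (background 95.4% of the listed 3′ UTR clusters). The non-coding RNA was a snoRNA in 5 of them, a tRNA in 1 and another kind in 8. All 11 that could be tested were higher in CLIP (background 97.2% of all tested clusters). The median ratio of the 14 was 3.44 ± 1.78 and differed by 0.05 ± 0.38 from that of the listed 3′ UTR clusters, being higher in 1 of 3 replicates (exact sign-flip p = 1, two-sided).

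Within this kind, mnk-1 (WBGene00011304), which encodes a kinase that acts on the cap-binding factor eIF4E, shared its 3′ UTR with the non-coding RNA R166.6. The cluster at chromosome II, 10543385 to 10543485 (minus strand) had 618, 94 and 458 reads in CLIP against 2, 5 and 2 in input, a ratio of 5.60 ± 2.46. Replicate 2 stood at 2.76 there and the other replicates at 7.21 and 6.81. A second cluster of the pair, 610 bases away, had 65, 26 and 23 reads in CLIP against 2, 3 and 1 in input, a ratio of 2.89 ± 1.25.

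The gene Y65B4A.6, eif-4A3 in RefSeq, encodes an RNA helicase of the eIF4A family, known in mammals as part of the exon junction complex. It had a pair of clusters at snoRNAs in its 3′ UTR on chromosome I, beside 5 listed 3′ UTR clusters of its own. At Y65B4A.10 (630021 to 630168, minus strand) there were 378, 71 and 251 CLIP reads against 2 reads in each input, a ratio of 5.27 ± 1.68. At Y65B4A.11 (630928 to 631026) there were 308, 51 and 193 reads in CLIP against 8, 3 and 2 in input, a ratio of 4.23 ± 1.59. The clusters covered 69.5% and 90.0% of the snoRNA genes, and the nearest listed cluster of Y65B4A.6 lay 69 bases from the first one, at a ratio of 6.08.

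The 1 tRNA of this kind, WBGene00023188, lies in the 3′ UTR of mdf-2, a spindle checkpoint gene of the Mad2 family. It had 735, 71 and 106 reads in CLIP against 8, 1 and 1 in input (chromosome IV, 2639807 to 2639880, minus strand), a ratio of 5.04 ± 0.99. W06H8.6 and the non-coding RNA W06H8.5 shared a pair of clusters with ratios of 3.04 ± 1.82 and 4.07 ± 1.26, the higher one from 221, 48 and 113 reads in CLIP against 3, 2 and 4 in input. In both W06H8.5 clusters all CLIP libraries exceeded all inputs.

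The 2 clusters at which a pair of mRNA exons overlapped were both higher in CLIP (background 97.2% of all tested clusters). The first lay at lin-7, which encodes a PDZ scaffold protein, and Y54G11A.9, with 103, 34 and 127 reads in CLIP against 4, 5 and 6 in input, a ratio of 2.99 ± 1.45. The second lay at epc-1, a homolog of Enhancer of Polycomb, and Y111B2A.10, with 83, 12 and 28 reads in CLIP against 4, 1 and 1 in input, a ratio of 2.83 ± 1.17. Reads could not be assigned to 1 gene of either pair, and RefSeq's Y54G11A.9 does not reach the lin-7 cluster. The list of 636 held 2 further clusters of lin-7, both in its 3′ UTR, and 2 of epc-1, both intronic.

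Transfer RNAs were the most frequent class. A tRNA was named in 40 of the 100 clusters, from 39 tRNA genes, 39 clusters lying in host introns and 1 in the mdf-2 3′ UTR. Of the 39 in host introns, 29 could be tested, 28 of which were higher in CLIP, and in 34 all CLIP libraries exceeded all inputs. Their ratios ran from 1.33 to 5.83, the lowest being WBGene00014539 in W03C9.6, which alone of the 29 missed the threshold (edgeR adjusted p = 0.113) at 478, 56 and 208 reads in CLIP against 105, 12 and 58 in input. Without CLIP replicate 2 it passed, and 35 of 35 tested were higher (background 99.9%). The count was 24 of 27 tested without CLIP replicate 1 (393 of 426 over all clusters) and 25 of 27 without CLIP replicate 3 (407 of 431). It was 34, 33 and 31 of 37 without input replicate 1, 2 or 3 (597, 675 and 593 of 731 over all clusters). The median ratio of the 39 was 3.03 ± 1.21. It differed by -0.09 ± 0.12 from that of the 58 listed tRNA clusters, lower in 2 of 3 replicates (exact sign-flip p = 0.5, two-sided, 0.563 adjusted over 9). Of the 39, 2 had a deposited p under 0.05 in just 1 replicate, and no listed cluster had. tRNA copies can be near-identical, and the sources used here do not give how reads matching several copies were counted, so the split of reads among copies is uncertain. The X chromosome held 13 of the 40 tRNA clusters and the other 5 chromosomes 4 to 7 each. How all tRNA genes spread over the chromosomes was not counted here, so these numbers show no excess on any chromosome.

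WBGene00014426 (chromosome II, 11157801 to 11157874, minus strand), in an intron of ptr-13, a Patched-related gene, had the most CLIP reads and the highest ratio of the tRNAs. It had 3907, 443 and 981 reads in CLIP against 32, 3 and 15 in input, a ratio of 5.83 ± 0.51 with an edgeR adjusted p of 4.09e-06. WBGene00014283, in an intron of the chemoreceptor gene sre-13, came next in CLIP reads with 1947, 242 and 642 against 99, 5 and 21 input reads, a ratio of 4.12 ± 0.31. The ratio varied little among the 3 pairs in both, while CLIP replicate 1 held the most reads and CLIP replicate 2 the fewest. WBGene00023210, in an intron of the ion channel gene deg-1, had 714, 92 and 162 reads in CLIP against 4, 1 and 1 in input, a ratio of 5.64 ± 1.21.

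Most of the tRNA clusters spanned the whole tRNA gene. At least 95% of the RefSeq gene was covered in 34 of the 40 tRNA clusters, against 2 of the 58 listed ones, and the median width was 76 bases (20 to 102) against 38 bases (1 to 71). The cluster ran 2 or more bases past an end of the tRNA gene in 33 of the 40 and in 0 of the 58. These 58 came from 44 tRNA genes, several with more than 1 cluster. RefSeq positions were used for both sets. No listed tRNA cluster ran more than 1 base past either end. All 40 carried a second annotated gene. Of them, 2 also had a deposited p under 0.05 in just 1 replicate, which no listed cluster had. Whether the choice of these 40, or gene bounds used in calling clusters, set these widths was not tested.

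Of the 40 tRNA clusters, 6 covered under 95% of a tRNA gene, and they formed 3 neighbouring pairs with nearly equal counts. In an intron of ajm-1, a gene of the epithelial apical junction, a cluster on WBGene00023078 covered bases 34 to 72 of 72 and a cluster on WBGene00023079, 401 bases downstream, covered bases 1 to 34 of 72. The first had 514, 47 and 119 CLIP reads and the second 553, 53 and 140, against 1, 1 and 1 and 1, 1 and 2 input reads, with ratios of 5.45 ± 2.09 and 5.43 ± 2.07. Taken in this order, the pair holds the 3′ part of 1 tRNA gene and the 5′ part of the next.

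The pair in an intron of the potassium channel gene twk-21 lay 453 bases apart. It held bases 35 to 73 of WBGene00014495 and bases 13 to 32 of WBGene00014496, the latter reaching neither end of its 73-base gene. It had 33, 5 and 13 CLIP reads at the first and 33, 6 and 14 at the second, and 1 read in every input. In an intron of C14B9.3, both clusters lay on 1 tRNA gene of 122 bases, WBGene00022924, on bases 1 to 33 and 66 to 121. They had 133, 23 and 37 CLIP reads at the first and 136, 23 and 36 at the second, against 7, 3 and 4 and 7, 3 and 7 input reads. Between neighbours the CLIP counts differed by at most 15.0%, 16.7% and 2.70% in these pairs. A whole-gene pair in an intron of F08G5.3, WBGene00014315 and WBGene00014314, had 152, 20 and 44 CLIP reads at the first and 153, 20 and 44 at the second, with 5, 1 and 2 input reads at each. Whether 1 set of reads was counted at both places was not tested.

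**Figure D3:**
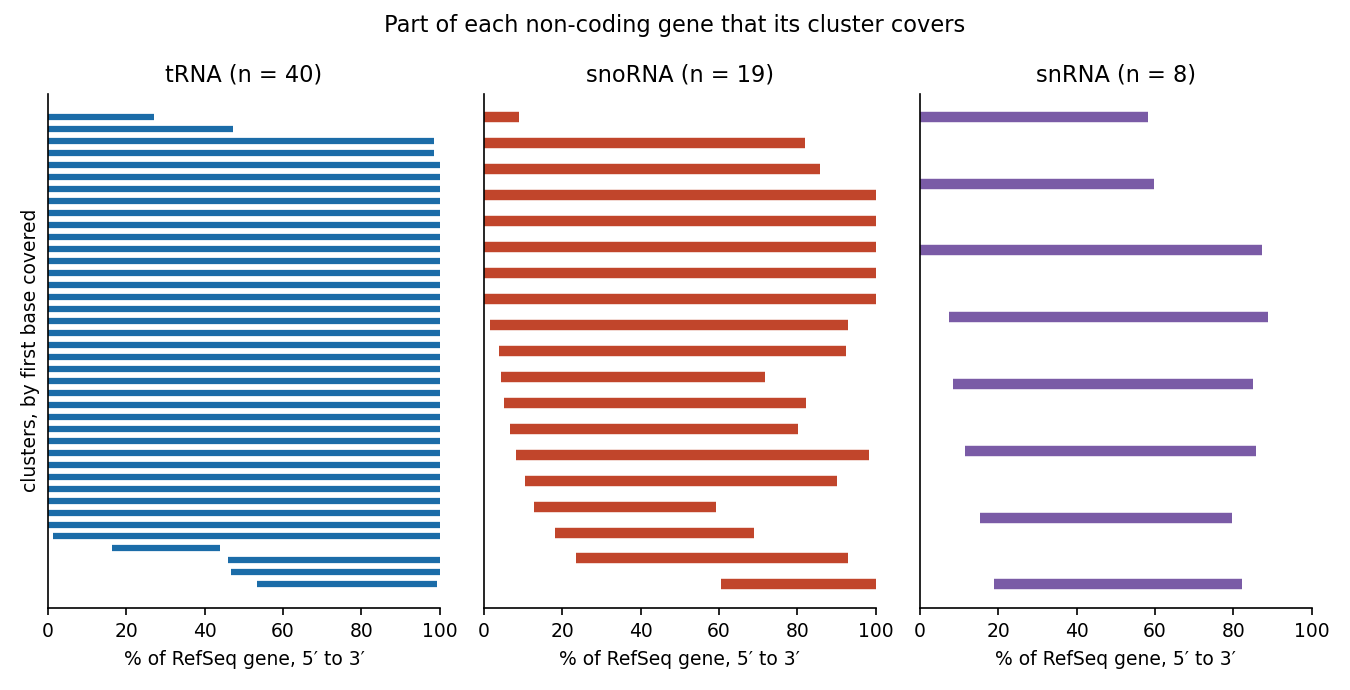
Each bar is the part of a RefSeq non-coding gene (x axis, % of its length from 5′ to 3′) that 1 cluster covers, for tRNAs (40), snoRNAs (19) and snRNAs (8). Most tRNA bars run the full length, while no snRNA bar does and snoRNA bars have a median of 82.1%.

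Small nucleolar RNAs guide chemical modification of ribosomal and other RNAs, and many are processed from introns. Among the clusters, 14 lay on snoRNAs in host introns. All 14 could be tested, and 8 were higher in CLIP (background 97.2% of all tested clusters). All CLIP libraries stood above all inputs in 6 of the 14 (background 42.9% of the listed snoRNA clusters). The count of 8 rested on single libraries. Without CLIP replicate 1, 2 or 3 it was 5 of 13 tested, 13 of 14 and 4 of 13 (393 of 426, 679 of 680 and 407 of 431 over all clusters). Without input replicate 1, 2 or 3 it was 3, 2 and 4 of 14 (597, 675 and 593 of 731 over all clusters). The median ratio of the 14 was 1.34 ± 0.73, and that of the host-intron tRNAs exceeded it by 1.69 ± 0.94 in 3 of 3 replicates (exact sign-flip p = 0.25, 0.321 adjusted over 9). Beside this stands their input: the median summed over the 3 inputs was 59 reads, against 7 for the host-intron tRNAs and 6 for the 5 snoRNAs that overlap an mRNA 3′ UTR. Those 5 had a median ratio of 3.21 ± 1.60, higher than the host-intron snoRNAs by 1.87 ± 1.34 in 3 of 3 replicates (exact sign-flip p = 0.25). The part of input level in these differences was not tested. Host-intron minus listed snoRNA clusters (7, median ratio 1.99 ± 0.65) gave -0.65 ± 0.54, lower in 3 of 3 replicates (exact sign-flip p = 0.25, 0.321 adjusted over 9). Of the 14, 5 had a deposited p under 0.05 in just 1 replicate, and no listed cluster had. Those deposited p-values come from the same reads, so this difference is a description and its sign-flip p cannot serve as a test.

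Of the snoRNAs in host introns, F25H2.14, in tct-1, the gene of the translationally controlled tumour protein, had the most CLIP reads and the highest ratio. It had 612, 134 and 392 reads in CLIP against 23, 9 and 34 in input (chromosome I, 10569197 to 10569348, plus strand), a ratio of 3.26 ± 0.85. All CLIP libraries stood above all inputs. C50C3.13, in prp-8, which encodes a core spliceosome protein, had 172, 30 and 57 reads in CLIP against 25, 2 and 20 in input, a ratio of 1.81 ± 0.68, and the groups overlapped in CPM. It passed the test (edgeR adjusted p = 0.0411), but not when CLIP replicate 1, CLIP replicate 3 or any 1 of the inputs was left out.

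At the low end, M106.6, in an intron of the condensin gene mix-1, had 65, 19 and 38 reads in CLIP against 16, 4 and 71 in input. Replicate 3 went below 0, at -1.33, and the ratio was 0.31 ± 1.46, while edgeR's log2 fold was -0.09 (adjusted p = 0.920) and 0.33 with the replicate block (adjusted p = 0.691). D1007.20, in an intron of the ribosomal protein gene rpl-24.1, had 178, 40 and 102 reads in CLIP against 45, 8 and 64 in input, a ratio of 0.89 ± 0.64 (edgeR adjusted p = 0.324). D1046.6 (cfim-2), ZK994.7 (pxn-1) and K11C4.6 (unc-70) had ratios of 1.10 ± 0.64, 1.10 ± 0.34 and 1.13 ± 0.85, and none passed the test. CLIP and input libraries overlapped in all 5. T06D8.11, the sixth that missed the threshold, had a ratio of 1.19. Without CLIP replicate 2, T06D8.11 and 4 of these 5 passed the test, M106.6 being the exception, with edgeR adjusted p of 0.0325 for D1046.6, 0.0155 for ZK994.7, 0.0138 for K11C4.6 and 0.0312 for D1007.20.

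**Figure D4:**
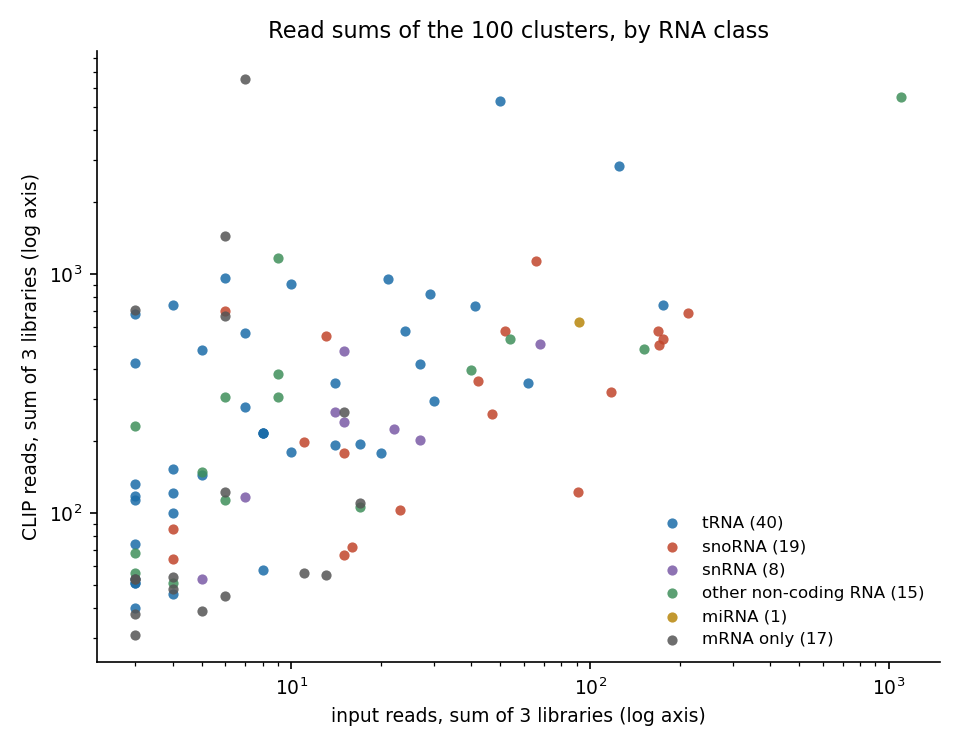
Each point is 1 of the 100 clusters at its CLIP reads (y axis) and input reads (x axis), both summed over 3 libraries on log axes, coloured by RNA class. Host-intron snoRNAs make up most of the red points, which lie to the right at a median of 42 summed input reads for all 19, while tRNAs have a median of 7.5.

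Small nuclear RNAs were named in 8 clusters. The trans-splicing RNAs of the SL2 family were represented by sls-2.5, sls-2.15 and sls-2.18, and the SmY RNAs, nematode snRNAs associated with trans-splicing, by smy-8, smy-10 and smy-11. The 5 snRNAs in host introns had a median ratio of 2.22 ± 1.03. Of these, 3 could be tested, all higher in CLIP (background 97.2% of all tested clusters). F07C6.5, in an intron of the LIM domain gene pin-2, had 270, 61 and 179 reads in CLIP against 34, 8 and 26 in input, a ratio of 2.11 ± 0.48, without overlap of the groups. It did not pass the test without CLIP replicate 3 or without any 1 of the inputs. Its cluster covered bases 1 to 71 of 122, and that of the snRNA C53B4.9 covered bases 1 to 73 of 122. No cluster covered the whole of an snRNA gene, the shares running from 58.2% to 87.2%.

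Where non-coding RNAs overlapped each other, the SmY RNA smy-10 shared its cluster with the piRNA 21ur-3398, a small RNA of the Piwi pathway. It had 330, 27 and 119 reads in CLIP against 4, 2 and 9 in input, a ratio of 3.57 ± 1.83. The neighbour smy-8, 743 bases away and annotated with the piRNAs 21ur-3338 and 21ur-2046, had 195, 17 and 53 reads in CLIP against 8, 1 and 5 in input, a ratio of 2.88 ± 1.02. All CLIP libraries exceeded all inputs in both. The clusters were 57 and 51 bases wide, against 21 for a piRNA gene, and covered 33.3% to 66.7% of the piRNA genes. T28D6.15 and T28D6.10, which overlap each other within an intron of the tubulin gene tba-7, had 308, 56 and 123 reads in CLIP against 58, 9 and 85 in input. Their ratio of 1.10 ± 0.93 did not pass the test (edgeR adjusted p = 0.225), and with CLIP replicate 2 left out it did (0.0132).

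Among the other non-coding RNAs in host introns, srpr-1.2, in the choline kinase gene ckb-2, had the most reads of the class in both groups. It had 3558, 578 and 1377 reads in CLIP against 563, 122 and 417 in input (chromosome III, 4369466 to 4369540, plus strand). The lowest CLIP value, 100 CPM, lay below the highest input value of 135 CPM. Its ratio was 1.49 ± 0.61, with an edgeR adjusted p of 0.0815 without the pairing of lysates and 0.00767 with the replicate block. The cluster covered bases 1 to 73 of 299. On lfor-2 in atgp-2, 1 cluster covered bases 202 to 302 of 302, with 341, 81 and 113 reads in CLIP against 17, 15 and 22 in input and a ratio of 2.26 ± 1.36. A second covered bases 1 to 24, so that the middle of the gene was in neither.

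The only microRNA among the 100 was mir-353, in an intron of rpl-24.1, 470 bases downstream of the D1007.20 cluster. It had 271, 134 and 227 reads in CLIP against 33, 9 and 50 in input, a ratio of 2.26 ± 0.47 (edgeR adjusted p = 0.0255). It did not pass the test without CLIP replicate 3 or without any 1 of the inputs. Only 17.3% of the RefSeq microRNA gene lay in the cluster, its bases 1 to 19 of 110, and the rest of the 63 bases lay upstream of it. Within 1 host gene, the ratios were thus 0.89 at the snoRNA and 2.26 at the microRNA.

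The 11 clusters with 1 gene held few reads, with a median of 53 CLIP reads summed over replicates, and only 1 could be tested. By region they were 8 3′ UTR clusters, 2 intronic ones (cpt-1 and tftc-1) and 1 exonic one. F23A7.4, the exonic one, had the most reads, with 62, 34 and 14 in CLIP against 4, 6 and 7 in input, a ratio of 1.58 ± 1.42 (edgeR adjusted p = 0.0125). It did not pass the test when any 1 of the inputs was left out, or with input counts of 1 taken as 0. The 3′ UTR of ran-1, which encodes the Ran GTPase of nuclear transport, had 32, 11 and 13 reads in CLIP against 2, 2 and 7 in input, a ratio of 1.38 ± 1.41. That of imb-2, a nuclear import receptor gene, had 28, 17 and 10 reads in CLIP against 3, 2 and 8 in input, a ratio of 1.20 ± 1.28, and replicate 3 stood at -0.15. Their median ratio of 1.72 ± 1.20 in the 8 3′ UTRs, against 3.38 ± 1.43 in the listed 3′ UTR clusters, is a description, since the p-values that mark them off come from the same reads.

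**Figure D5:**
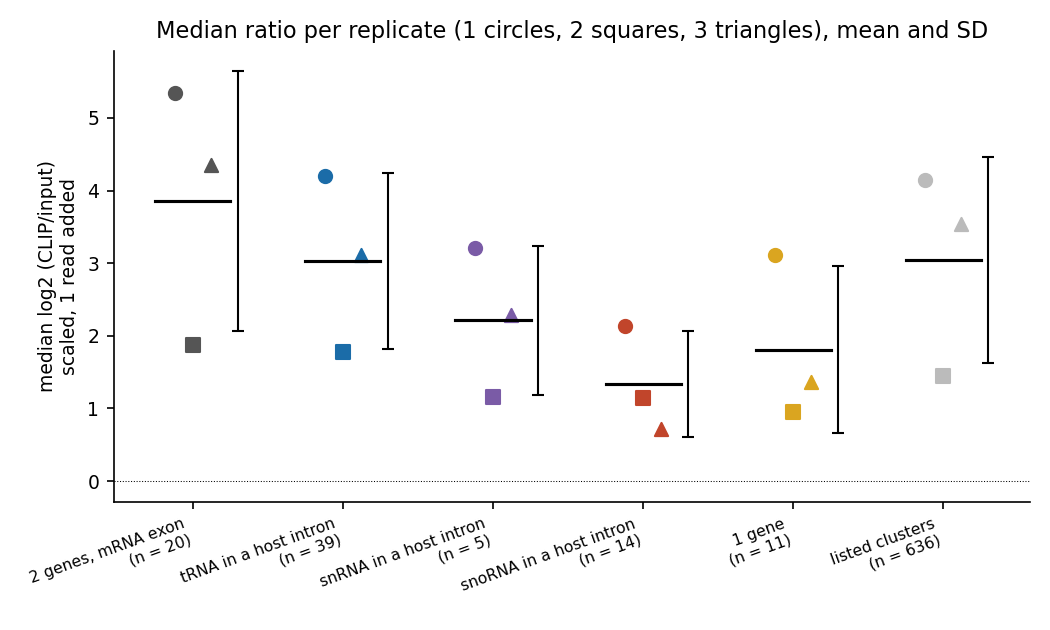
Median log2 ratio (y axis, scaled, 1 read added) of each set of clusters in replicates 1 (circles), 2 (squares) and 3 (triangles), with the mean (line) and SD (bar) over replicates, where the set of 20 joins the clusters with an mRNA exon and another gene. In 5 of the 6 sets replicate 2 is lowest, and in host-intron snoRNAs replicate 3 is lowest at 0.72.

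Gene lists from RNA biology were matched by the file's gene name or its RefSeq symbol. No cluster named a gene from the lists of ADAR substrates or of RNA editing and small RNA pathway genes, lists with 25 and 2 clusters in the list of 636. Histone genes were named in none of the 100 and in 1 listed cluster. Translation factors were named in 2 of the 100, both at Y65B4A.6 and both higher in CLIP (background 97.2%), and in 14 listed clusters. Ribosomal protein genes were named as host by the 2 clusters in rpl-24.1, of which 1 passed the test, and in 1 listed cluster. Splicing genes were named by C50C3.13 in prp-8 and in 1 listed cluster. The snoRNP protein gene nol-56, named after its values were seen, hosted a pair of snoRNA clusters with ratios of 1.26 ± 0.83 (K07C5.18) and 1.48 ± 1.07 (K07C5.10).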

How the data were processed

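The submitters' processing notes name fastp 0.21.0, STAR 2.7.10b and the builds ce11 and WBcel235, and the file captions name CLIPPER as the cluster caller and WormBase as the annotation. The authors deposited raw counts per cluster, replicate and group, none below 1, so 0 cannot be told from 1. For each replicate the authors also deposited a p-value, which the file captions credit to CLIPPER's chi-square or Fisher statistics. The deposited chi-square score was used to recover library totals, which met 130 of 130, 73 of 76 and 116 of 116 scores in replicates 1, 2 and 3. The deposited log2 fold is the log2 ratio of both counts after adding 1 to each, in 2208 of 2208 cases, and is not scaled. Deposited starts count from 0 (17 of 18 clusters compared by their deposited share in the transcript) and are printed counting from 1.

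The members and the gene lists were chosen with earlier results of these data known. All clusters, listed ones included, were fitted with edgeR 4.0.16 in R 4.3.3 (glmQLFit, glmQLFTest, filterByExpr, recovered totals as library sizes, Benjamini-Hochberg, 0.05), without a replicate block, and the fit was tested on simulated data. The biological coefficient of variation was 0.672. Same-numbered CLIP and input come from 1 lysate per the labels' protocols, and their deviations from group means had correlations of 0.33, 0.11 and 0.0016. Differences of medians were tested with exact sign flips over 3 replicates. Names, kinds and RNA classes are the authors' annotation on the cluster's strand; 187 of 193 gene entries matched RefSeq (WBcel235), which gave gene lengths. No sequence is printed, since no genome was used here.

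Named clusters are the 10 with the largest and 5 with the smallest ratio and the 3 with the most CLIP reads per kind and RNA class. Clusters of 5 genes with the most clusters and members of 6 gene lists were added, making 39 in all. The 5 genes came from 20 tied at 2 clusters each, taken by number of listed clusters and then by name. Other clusters were chosen after their values were seen. Alternatives were TMM, DESeq2 1.42.0 with its own size factors or the totals, no filter, the replicate block, each library or replicate left out, input counts of 1 as 0, 0.5 reads added, a minimum of 5 summed input reads, other annotation orders and, added after seeing the data, the deposited scaled ratio.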

Additional observations from a re-analysis of the deposited data

How the results depend on the processing

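The count of 65 of the 100 clusters called higher in CLIP depended on the scaling. With TMM or with DESeq2's own size factors 11 were called higher in each (background 35.9% and 18.1% of all tested clusters), and 25 and 30 were called lower (background 14.9% and 14.4%), where the recovered totals gave 0 (edgeR; no tested cluster was lower). Both scalings move the median of all tested clusters, 4.44 with the totals, to 0.69 and -0.17 by construction, since the table holds only clusters chosen for CLIP reads. DESeq2 with the totals called 87, no filter 86 and input counts of 1 taken as 0 called 56. The replicate block called 66 of 74 (451 of 463 over all clusters), kept all 65, added srpr-1.2 and changed no other call. Leaving out 1 library gave 51 to 83 calls. These were 51 of 68 tested members without CLIP replicate 1 (393 of 426 over all clusters) and 83 of 84 without CLIP replicate 2 (background 99.9%). Without CLIP replicate 3 there were 56 of 71 (407 of 431). Without input replicate 1, 2 or 3 there were 66, 69 and 64 of 95 (597, 675 and 593 of 731 over all clusters).

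The median ratio of 2.58 became -1.12 with TMM-scaled library sizes, 2.82 with 0.5 reads added, 3.08 with input counts of 1 taken as 0, 2.64 over the 72 clusters with at least 5 input reads, 3.20 as the deposited scaled ratio (chosen after seeing the data) and 2.00 to 3.18 without 1 replicate. With TMM-scaled sizes 25 of 39 named ratios turned: -0.66 for W06H8.5/W06H8.6 (a), -0.81 for R166.6/mnk-1 (b), -1.44 for mir-353 and for lfor-2 (a), -2.21 for srpr-1.2, -1.59 for F07C6.5, -0.44 for F25H2.14, -1.89 for C50C3.13, -2.57 for K11C4.6, -2.60 for ZK994.7, D1046.6 and T28D6.15/T28D6.10, -2.81 for D1007.20, -3.39 for M106.6, -0.42 for WBGene00014314 and WBGene00014315, -1.22 and -1.45 for WBGene00022924 (a) and (b), -2.12 for F23A7.4, -2.32 for ran-1, -2.50 for imb-2, -0.71 for lin-7/Y54G11A.9, -0.87 for epc-1/Y111B2A.10, -0.13 for smy-10 and -0.82 for smy-8. The fitted log2 fold turned with TMM and with DESeq2's size factors, to -2.39 and -2.45 for srpr-1.2, -3.01 and -3.06 for K11C4.6, -3.08 and -3.14 for ZK994.7, -2.89 and -2.95 for D1046.6, -3.16 and -3.22 for D1007.20, and -3.004 and -3.06 for T28D6.15/T28D6.10. That of M106.6, -0.09, became 0.33 with the replicate block, 0.24 without CLIP replicate 2 and 1.33 without input replicate 3, and ran from -0.60 to 1.33 over the libraries left out. The ratio of M106.6 ran from -0.27 without replicate 1 to 1.13 without replicate 3. Requiring a deposited p under 0.05 in at least 2 replicates left 81 clusters, 75 of the 83 that name a non-coding RNA and 0 of the 11 with 1 gene. Counts near 1 limit the inputs: 18 of the 100 clusters had 1 read in all 3 inputs.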
